A study of Mus musculus with 12 samples.

Results

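Kinesins are the motor proteins that walk along microtubules, and the genes described here are those named Kif followed by a number and an optional letter, with Kifc2 and Kifc3. Of 19938 genes that the array's annotation gave as a single symbol, 39 were kinesins under this rule, and the entry with the highest mean over the 12 arrays stood for each. By the role a kinesin is known for, 12 were listed as mitotic, 12 as axonal and cargo transport, 9 as ciliary and 6 as other. Each gene was placed in 1 list, also where it may have more than 1 role. Kifc1 shares its array entry with Kifc5b and was left out. A gene was tested where its mean log2 signal was above 6 in at least 1 group, and 37 kinesins were, the mitotic Kif14 and Kif2b being under 6 in every group.

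A kinesin hydrolyses ATP to move along a microtubule or, in some families, to take its ends apart. During cell division mitotic kinesins push the spindle poles apart, align chromosomes and build the midzone at which daughter cells separate. In neurons, transport kinesins carry vesicles, mitochondria and membrane proteins from the cell body into the axon. In cilia, kinesin-2 motors drive intraflagellar transport toward the tip, and other kinesins set the length or the signalling of the cilium. Hair cells of the organ of Corti carry a true cilium, the kinocilium, only for a period of their development, and spiral ganglion neurons extend their fibres into the cochlea.

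The samples were wild-type cochleae of C57BL/6 mice at postnatal day 0 (P0) and postnatal day 8 (P8), with no treatment. The otic capsule was removed, lateral wall, spiral limbus and organ of Corti were kept as 1 tissue, and this was divided into base, middle and apex, the base being the end tuned to high and the apex that tuned to low frequencies. There were 2 arrays for each combination of age and region, 1 for a first and 1 for a second round of dissection (the first and second set). The repeated dissection is described in the study's methods, while the sample titles tell the sets apart by a year alone. What else differed between the sets is not given. All 3 regions of a given age within a set were cut from a shared batch of about 80 temporal bones, pooled over animals. A value is an RMA signal on the log2 scale, so that a difference of 1 is a fold of 2, and signals of different genes are not comparable because their probes differ.

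Signal medians ran from 7.21 to 7.29 over the 12 arrays, and only 2 arrays per group limit the precision. All 12 hair cell markers and all 11 supporting cell markers listed passed the level of 6 in some group. The first-set array of the P0 apex stood apart in skeletal muscle markers, with a mean log2 signal of 7.47 over 13 genes against 6.67 to 6.92 on the other arrays. Bone and osteoblast markers, 6 of them tested, averaged 6.58 to 7.06 on the P0 arrays and 8.43 to 9.79 on the P8 arrays. In such whole tissue, fewer cells of a type and less RNA per cell cannot be told apart.

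Promoters of the kinesins were read from RefSeq (GRCm38.p6), as 250 bases before and 50 after a transcript start, and 31 of the 39 genes had an entry. The promoters of Kif11, Kif23 and Kif15 are shown because these were the mitotic kinesins with the largest fall from P0 to P8, and those of Kif5c and Kif21a stand for the transport kinesins. Capitals mark matches, on either strand, of TTTGAA, the core of the cell cycle genes homology region (CHR) known from promoters of genes of late cell cycle, and of CCAAT, the box bound by NF-Y. On the opposite strand these read TTCAAA and ATTGG.
Kif11, chr19:37376132-37376431, plus strand: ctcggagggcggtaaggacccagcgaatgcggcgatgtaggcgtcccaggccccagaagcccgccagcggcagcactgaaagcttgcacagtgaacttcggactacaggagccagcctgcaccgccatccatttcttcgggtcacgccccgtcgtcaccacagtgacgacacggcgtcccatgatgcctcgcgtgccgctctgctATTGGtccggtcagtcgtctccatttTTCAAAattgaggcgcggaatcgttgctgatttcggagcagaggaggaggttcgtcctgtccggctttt
Kif23, chr9:61946750-61947049, minus strand: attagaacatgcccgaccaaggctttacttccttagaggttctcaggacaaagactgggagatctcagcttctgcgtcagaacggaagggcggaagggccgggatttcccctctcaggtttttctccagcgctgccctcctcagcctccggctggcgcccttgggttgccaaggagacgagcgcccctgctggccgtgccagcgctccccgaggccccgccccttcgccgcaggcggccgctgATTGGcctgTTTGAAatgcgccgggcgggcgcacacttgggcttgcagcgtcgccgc
Kif15, chr9:122950831-122951130, plus strand: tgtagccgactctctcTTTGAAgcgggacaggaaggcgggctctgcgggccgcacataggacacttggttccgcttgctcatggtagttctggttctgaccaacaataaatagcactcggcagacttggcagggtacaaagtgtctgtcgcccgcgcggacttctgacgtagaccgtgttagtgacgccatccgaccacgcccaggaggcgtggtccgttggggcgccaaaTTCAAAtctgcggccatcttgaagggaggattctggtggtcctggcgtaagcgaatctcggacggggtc
Kif5c, chr2:49619036-49619335, plus strand: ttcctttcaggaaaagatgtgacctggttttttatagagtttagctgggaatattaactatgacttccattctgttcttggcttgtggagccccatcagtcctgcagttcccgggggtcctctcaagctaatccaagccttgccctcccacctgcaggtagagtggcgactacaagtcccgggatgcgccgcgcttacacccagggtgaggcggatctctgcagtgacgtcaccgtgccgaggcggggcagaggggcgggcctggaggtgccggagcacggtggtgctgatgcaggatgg
Kif21a, chr15:91049902-91050201, minus strand: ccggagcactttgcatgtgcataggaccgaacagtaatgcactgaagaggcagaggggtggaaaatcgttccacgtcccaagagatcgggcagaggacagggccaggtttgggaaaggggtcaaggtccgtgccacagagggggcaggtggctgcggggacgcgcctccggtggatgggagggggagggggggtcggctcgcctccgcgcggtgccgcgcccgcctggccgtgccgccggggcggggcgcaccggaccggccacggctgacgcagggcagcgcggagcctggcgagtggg

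CHR matches were frequent in the promoters of mitotic kinesins. The letters TTTGAA were present in 9 of 11 of them (81.8%), in 1 of 10 promoters of axonal and cargo kinesins, in 1 of 9 of ciliary kinesins and in 1 of 5 of other kinesins, against 17.9% of all 32851 promoters in the table. In 7 of the 11 mitotic promoters a match began within 25 bases of the start, a window chosen after the positions were seen, as in 1 of 5 promoters of other kinesins (that of Kif26b) and against 2.65% of all promoters. In Kif11 and in Kif15 it began 19 bases before the start and in Kif23 at base 3 after it, as the capitals above show. Among the promoters of 24 other genes of mitosis, listed as partners of these motors, 19 of 26 held the letters (73.1%).

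CCAAT was found in 7 of 11 mitotic promoters (63.6%), in 5 of 9 ciliary, 2 of 10 axonal and cargo and 1 of 5 other promoters, against 37.4% of all promoters. The variant TTCGAA was in none of the 11 mitotic promoters and in 1.56% of all. No CHR match overlapped a CCAAT match in a kinesin promoter, and the Kif5c and Kif21a promoters held neither. Kif27, a ciliary kinesin, held 3 CHR matches in its only window, whose start lies inside the span of the gene. The starts of the Kif14 and Kif2c windows, counted among the mitotic promoters with a CHR match, also lie well inside the span of their genes. The letters were matched as written, which says nothing of whether a factor binds there.

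**Figure D1:**
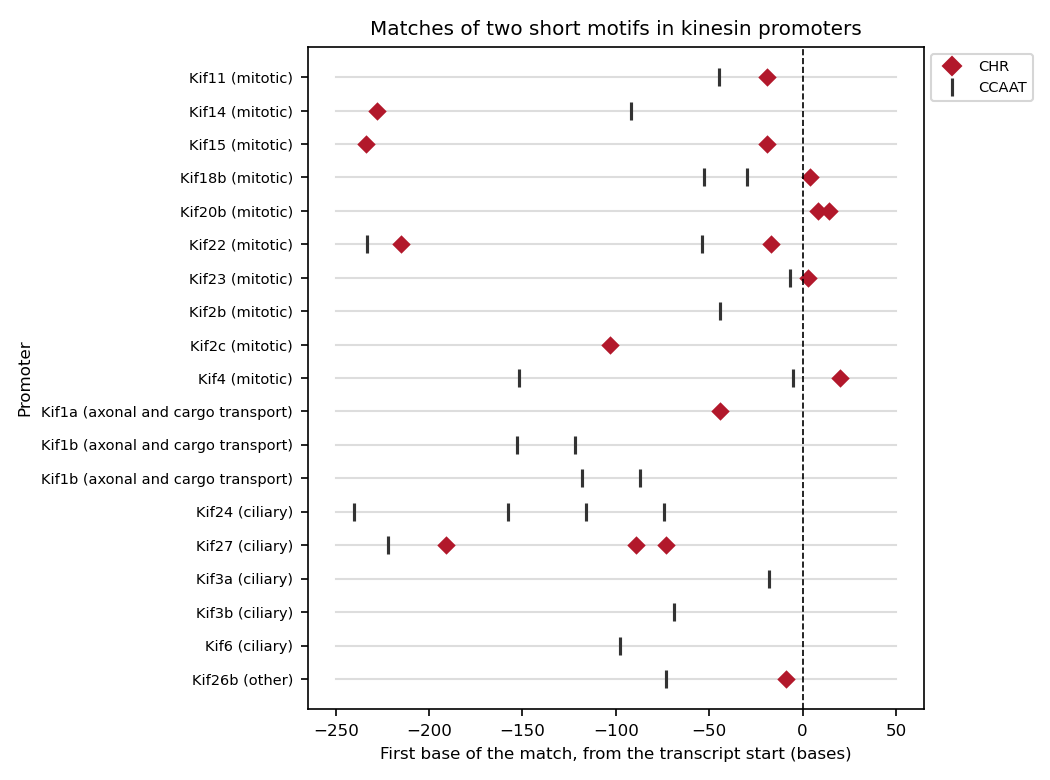
Positions of CHR (red diamonds) and CCAAT matches (black bars) in kinesin promoters that hold at least 1 match, on an axis in bases from the transcript start (dashed line), each grey line being a promoter from 250 bases before to 50 bases after it. Matches of CHR lie within 25 bases of the start in 7 of the 11 mitotic promoters in none of the 19 axonal, cargo and ciliary promoters, and in 1 of the 5 other promoters, that of Kif26b.

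Which motors change in the first postnatal week was asked by comparing P8 with P0 over the 3 regions. The kinesins that fell by at least 2-fold at an adjusted p under 0.05 were the mitotic Kif11, Kif23, Kif15 and Kif2c and the transport kinesin Kif21b, 5 of the 37 tested, against 1.14% of all 16306 genes tested. A single kinesin, the cargo transporter Kif13b, rose by this rule, against 2.06% of all genes. At an adjusted p under 0.05 with no fold asked for, 15 kinesins were lower at P8, against 9.19% of all genes, and 2 were higher, against 9.52%. The 15 were all 10 mitotic kinesins that could be tested, Kif21b, Kif5c, Kif5a and Kif1a of the axonal list and Kif27 of the ciliary list, and the 2 were Kif13b and Kifc3. This fit counts regions cut from a shared pool as replicates. With the pool of an age and set as a random block, 10 kinesins were lower (2.29% of all genes) and 2 higher (3.18%). The signal was lower on all 6 P8 arrays than on all 6 P0 arrays for 14 kinesins (7.41% of all genes) and higher on all of them for 2 (8.08% of all genes). Kif4 and Kif27 are in the counts of 15 and 14, and Kif4 in that of 10, but their means were above 6 at P0 alone. Both were thus tested only through the age at which they were higher, and their falls lend these counts no support.

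Kif2c, Kif21b and Kif4 lay close to the fold of 2, and the count of 5 moved with them. It was 3 when any of the first-set P0 arrays of base, middle or apex was left out, and 3 when the arrays were centred on their medians. Leaving out each array in turn gave -1.13 to -0.9 for Kif2c, -1.07 to -0.96 for Kif21b and -1.09 to -0.89 for Kif4, with adjusted p no higher than 0.00682, and counts from 3 to 6.

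**Figure D2:**
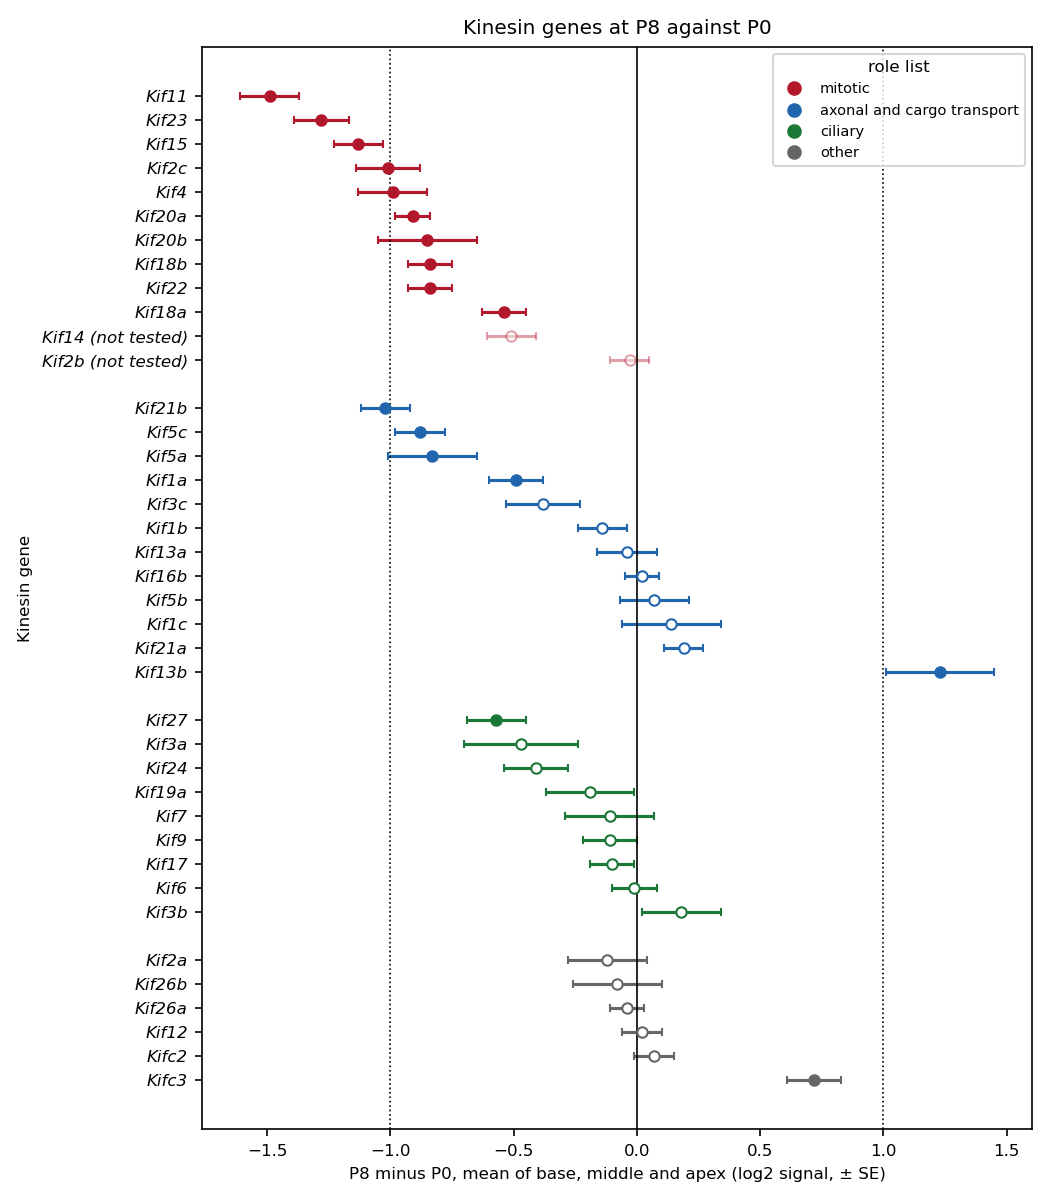
Difference of each of the 39 kinesin genes between P8 and P0 as the mean of base, middle and apex, in log2 signal with its standard error, grouped by role list. Filled points had an adjusted p under 0.05 in the limma fit, open points did not, faint points were not tested, and dotted lines mark a fold of 2; the mitotic genes lie to the left of 0 and Kif13b and Kifc3 to the right.

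The mitotic kinesins were lower at P8 in every region. Their median difference over the 3 regions was -0.95, between -1.49 for Kif11 and -0.54 for Kif18a, while the median of all tested genes was -0.00. All 10 that were tested had lower signals on the 6 P8 arrays than on the 6 P0 arrays, as 7.41% of all genes did. All 10 were also lower within each dissection set, with a median of -0.97 in the first and -0.89 in the second. Of these 10, Kif4 passed the filter only through its P0 groups, so its fall lends no support. With the pool as a random block in limma, 8 of the 10 were lower at an adjusted p under 0.05, against 2.29% of all genes. Their adjusted p ran from 0.00179 for Kif11 to 0.0334 for Kif4. Kif2c, Kif4, Kif11, Kif15, Kif21b and Kif23 were also named from these same arrays by the study, so that their direction is no independent evidence.

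Kif11 slides antiparallel microtubules apart to separate the spindle poles. Its log2 signal at P0 was 7.90, 8.20 and 8.69 in the first set and 8.50, 8.29 and 8.82 in the second, in the order base, middle and apex, and at P8 it was 7.09, 6.98 and 6.96 in the first set and 6.97, 6.81 and 6.67 in the second. The 2 ages did not overlap, and the apex was the highest region at P0 and the lowest at P8 in both sets. Over the 3 regions it fell 2.81-fold (-1.49 ± 0.12, SE, adjusted p = 7.0e-05, or 0.00179 with the pool as a random block).

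Kif23 is the motor of the centralspindlin complex at the midzone. It gave 8.14, 8.28 and 8.79 in the first set and 8.07, 7.85 and 8.35 in the second at P0 in the same order of regions, and 7.07, 7.19 and 6.83 in the first set and 7.0, 6.94 and 6.76 in the second at P8. Its P0 apex values stood above its P0 base values in both sets, and all P8 arrays were below all P0 arrays. The fall was 2.43-fold (-1.28 ± 0.11, adjusted p = 0.00012).

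Kif15 works beside Kif11 in keeping the spindle bipolar. Signals at P0 were 7.33, 7.11 and 7.36 in the first set and 7.10, 7.02 and 7.37 in the second, and at P8 6.15, 6.12 and 6.28 in the first set and 6.17, 5.99 and 5.80 in the second. Every region fell, 2.19-fold over the 3 (-1.13 ± 0.10, adjusted p = 0.000123), and the P8 apex differed most between the sets.

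Kif2c takes microtubule ends apart at the centromere. Its P0 signals were 7.36, 7.57 and 8.14 in the first set and 7.19, 7.17 and 7.47 in the second, and its P8 signals 6.49, 6.35 and 6.66 in the first set and 6.37, 6.49 and 6.46 in the second. The first-set P0 apex was its highest value, and the ages did not overlap. The fall was 2.02-fold (-1.01 ± 0.13, adjusted p = 0.000981).

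Kif4, the chromokinesin that binds chromosome arms and the midzone, gave 6.15, 6.44 and 7.01 in the first set and 6.17, 6.12 and 6.39 in the second at P0 and 5.48, 5.58 and 5.58 in the first set and 5.34, 5.28 and 5.08 in the second at P8. All 6 P8 values were under 6, so the fall of 0.99 ± 0.14 on the log2 scale is a lower bound (adjusted p = 0.00161). Its apex at P0 was the highest region in both sets.

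Kif20a, needed for the end of cytokinesis, gave 7.41, 7.54 and 7.79 in the first set and 7.53, 7.53 and 7.81 in the second at P0 and 6.84, 6.61 and 6.68 in the first set and 6.81, 6.67 and 6.54 in the second at P8. The sets lay close together in each region and the ages were apart. It fell by 0.91 ± 0.07 on the log2 scale (adjusted p = 5.64e-05).

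Kif18b, which shortens astral microtubules, gave 7.41, 7.60 and 7.69 in the first set and 7.47, 7.39 and 7.78 in the second at P0 and 6.65, 6.45 and 6.75 in the first set and 6.90, 6.82 and 6.72 in the second at P8, a difference of -0.84 ± 0.09 (adjusted p = 0.00048). Kif22, another chromokinesin, gave 7.20, 7.35 and 7.60 in the first set and 7.13, 7.10 and 7.27 in the second at P0 and 6.49, 6.49 and 6.39 in the first set and 6.59, 6.33 and 6.34 in the second at P8, a difference of -0.84 ± 0.09 (adjusted p = 0.000398). Both separated the ages on all arrays.

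Kif18a dampens chromosome movements at the metaphase plate. Its P0 signals were 6.38, 6.44 and 6.74 in the first set and 6.64, 6.49 and 6.58 in the second, and its P8 signals 6.01, 5.94 and 5.74 in the first set and 6.16, 6.17 and 6.00 in the second. This was the smallest fall of the 10, 0.54 ± 0.09 on the log2 scale (adjusted p = 0.00424), and the P8 apex mean of 5.87 makes the fall there a lower bound. Kif20b, a relative of Kif20a, differed by -0.85 ± 0.20 (adjusted p = 0.0163). Its P8 middle mean was 5.96, so its fall in the middle is a lower bound. With the pool as a random block the adjusted p was 0.119 for Kif18a and 0.0605 for Kif20b.

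**Figure D3:**
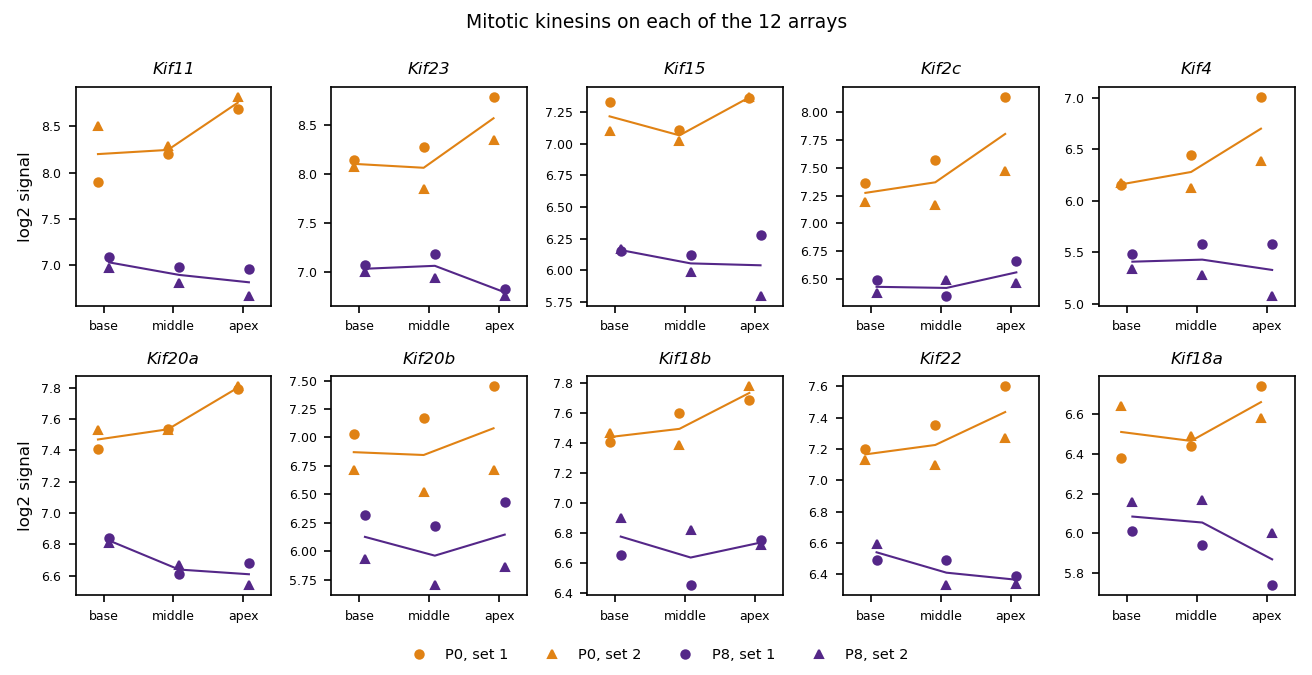
Log2 signal of the 10 tested mitotic kinesins on each array, by region, with P0 in orange and P8 in purple, circles for the first and triangles for the second dissection set, and lines through the mean of the 2 sets; each panel has its own vertical scale. In every panel the P8 points lie below all P0 points, as for 7.41% of all genes. At P0, 8 of the 10 genes were higher in the apex than in the base in both sets, as were 32.3% of all genes.

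The untested mitotic kinesins stayed under a log2 signal of 6 on every array. Kif14 ran from 5.39 to 5.87 at P0 and from 5.13 to 5.45 at P8, and no difference was read. Kif2b had a mean of 5.79 over the 12 arrays.

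Partners of the mitotic kinesins were also lower at P8. Of 28 listed genes of cell division that do not carry a kinesin name, 27 were tested. At an adjusted p under 0.05, 25 were lower (9.19% of all genes), 12 of them at least 2-fold (1.14%). None rose, and the median difference was -0.91. With the pool as a random block 19 were lower (2.29% of all genes). Several of the partners were picked by the study on these arrays. The largest falls were those of Bub1, a kinase of the spindle checkpoint, by 1.83 ± 0.15 on the log2 scale as a lower bound (adjusted p = 8.45e-05), and of Top2a, the topoisomerase that untangles sister chromatids (-1.59 ± 0.13, adjusted p = 8.28e-05).

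Within each region the rule was an adjusted p under 0.05 and a fold of at least 1.5. In the base, 6 kinesins were lower at P8 (1.48% of all genes) and 1 was higher (2.34%). In the middle, 8 were lower (1.64%) and 0 higher (2.37%), and in the apex 11 were lower (2.1%) and 0 higher (2.42%), although 2 and 3 were higher there at an unadjusted p under 0.05 in limma. Of those, 4 basal, 6 middle and 9 apical calls were mitotic kinesins, the tenth in the apex being Kif20b (-0.94 ± 0.34, adjusted p = 0.191). Kif21b and Kif5c passed in all 3 regions, although with the pool as a random block Kif5c passed in none (adjusted p = 0.0771, 0.114 and 0.0916 in base, middle and apex). Kifc3 was the gene that rose in the base.

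These regional counts rest on 2 arrays a side and moved with each of them. Without 1 of the 4 arrays of the region compared, the count of lower kinesins fell to between 0 and 2 in the base and between 0 and 3 in the middle. In the apex it was 4 when the first-set P0 array or the second-set P8 array was left out, and 6 when the first-set P8 array was. Under the replicate block, which fits the dissection set as a term, 12 kinesins were lower in the base (4.24% of all genes) and 13 each in middle (4.91%) and apex (6%). With that block 2, Kif13b and Kifc3, were higher in each region, against 6.27%, 6.16% and 6% of all genes.

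The median difference of the mitotic kinesins was -0.75 basally, -0.89 midway and -1.22 apically. Kif11 fell 2.25-fold in the base, 2.55-fold in the middle and 3.84-fold in the apex. Kif23 fell 2.1-fold, 2-fold and 3.42-fold in the same order. In the second set alone, which does not contain the array with the muscle markers, the apical differences of the 10 genes ran from -2.15 to -0.58 with a median of -1.16, and the basal ones from -1.54 to -0.48 with a median of -0.80. Whether the fall differed between apex and base is the change of the apex-base difference, and 0 kinesins passed that limma test (0% of all genes did). At an unadjusted p under 0.05 the change was below 0 for Kif11, Kif23 and Kif20a and above 0 for Kif21a, 4 of 37 against 2.04% of all genes.

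Along the cochlea at each age, 0 kinesins passed the limma test of apex against base at P0, where 0.00613% of all genes did, or at P8, where 0.196% did. At an unadjusted p under 0.05 there were 5 at P0, Kif11, Kif23, Kif2c, Kif20a and Kif5c, all higher in the apex (3.08% of all genes in either direction), and 2 at P8, Kif21a and Kif5c, also higher in the apex (4.28%). The mitotic kinesins were all on the apical side at P0, by 0.15 to 0.55 with a median of 0.31, against a median of 0.04 over all genes. Kif11 (0.55 ± 0.20), Kif4 (0.54 ± 0.25), Kif2c (0.53 ± 0.23) and Kif23 (0.46 ± 0.19) had the largest differences, each with an adjusted p of 1. In 8 of the 10 the apex was higher in both sets, as it was for 32.3% of all genes. Genes whose base and apex were both under 6 at an age are left out of the medians and shares along the axis. The second set gave smaller values, with a median of 0.27 and a highest of 0.31, than the first, with a median of 0.41 and a highest of 0.86, and the first holds the P0 apex array that stood apart in muscle markers, whose part in this was not tested.

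At P8 the apex-base differences of the mitotic kinesins were near or below 0. That of Kif4 was not read, its base and apex both being under 6. The other 9 ran from -0.24 for Kif23 to 0.12 for Kif2c with a median of -0.18, and in 5 of the 9 the base was higher in both sets, as for 32% of all genes. The change from P0 to P8 was below 0 in all 9, from -0.77 ± 0.29 for Kif11 to -0.19 for Kif20b, with a median of -0.41 against -0.03 over all genes. Every adjusted p was 1, and the lowest for a mitotic kinesin was 0.312 under the replicate block and 0.128 with the pool as a random block, both for Kif23. The mitotic partners gave a median of 0.31 at P0 over 27 genes and -0.11 at P8 over 25.

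**Figure D4:**
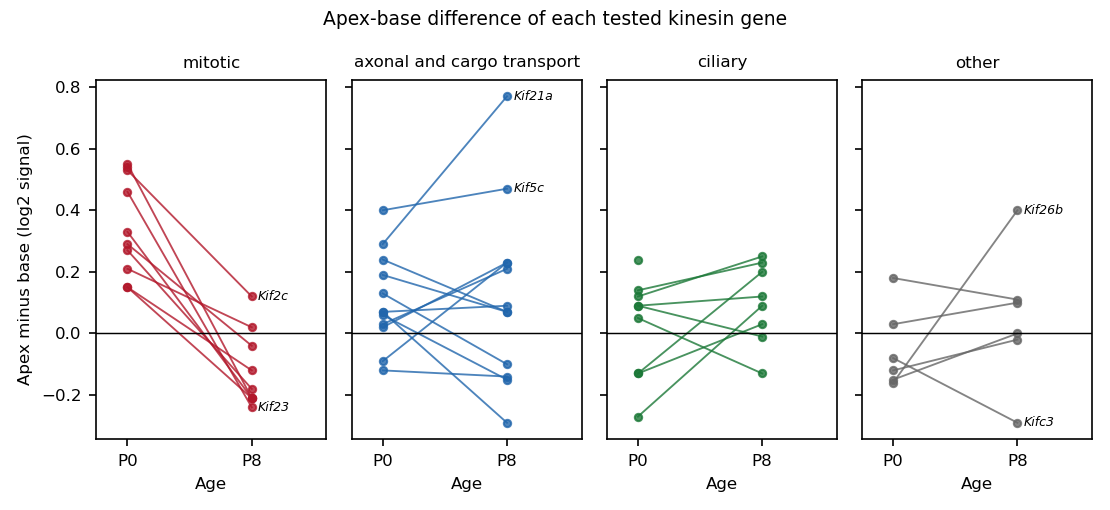
Apex minus base in log2 signal at P0 and at P8 for the 37 tested kinesins, 1 line per gene, in a panel for each role list; Kif4 and Kif27, under 6 in base and apex at P8, have a point at P0 alone. The 9 mitotic lines all run downward, from positive values at P0 to a median of -0.18 at P8, while Kif21a stands at 0.77 at P8 and the ciliary values lie between -0.27 and 0.25.

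Of the 12 axonal and cargo transport kinesins, 4 had a lower signal at P8 at an adjusted p under 0.05 (33.3%, against 9.19% of all genes) and 1 a higher one (8.33%, near the 9.52% of all genes). Their median difference was -0.09. With the pool as a random block 2 were lower (16.7%, against 2.29% of all genes in that fit) and 1 was higher (8.33%, against 3.18%). The 4 lower without the block were Kif21b, Kif5c, Kif5a and Kif1a, all known from neurons. Kif5b, the member of the kinesin-1 family that most cell types use, differed by 0.07 ± 0.14 (adjusted p = 0.78).

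Kif21b, a transport motor that also restrains microtubule growth, gave 8.03, 7.98 and 7.95 in the first set and 7.71, 7.72 and 7.62 in the second at P0 in base, middle and apex. Its P8 signals were 6.61, 6.86 and 6.88 in the first set and 6.77, 6.81 and 6.97 in the second. The ages were apart in every region and the regions of an age were close together. The fall was 2.02-fold (-1.02 ± 0.10, adjusted p = 0.00024), largest in the base (-1.18) and smallest in the apex (-0.86), although this difference between regions did not pass (0.32 ± 0.25, adjusted p = 1).

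Kif5c is a neuronal kinesin-1 heavy chain. It gave 7.99, 8.47 and 8.37 in the first set and 8.01, 8.13 and 8.44 in the second at P0 and 7.14, 7.62 and 7.38 in the first set and 6.99, 7.32 and 7.70 in the second at P8. Base was the lowest region in each age and set, and no P8 value reached a P0 value. Over the regions it fell by 0.88 ± 0.10 on the log2 scale (adjusted p = 0.000532, or 0.0476 with the pool as a random block). The apex-base difference was 0.40 ± 0.17 at P0 and 0.47 ± 0.17 at P8 (adjusted p = 1 and 0.933).

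Kif5a, the kinesin-1 heavy chain most restricted to neurons, differed by -0.83 ± 0.18 (adjusted p = 0.0126), and Kif1a, which carries synaptic vesicle precursors, by -0.49 ± 0.11 (adjusted p = 0.0143). With the pool as a random block these were 0.07 and 0.169. Kif5a separated the ages on all arrays. Kif3c, a kinesin-2 of neurons, differed by -0.38 ± 0.15 (adjusted p = 0.119, 0.0013 under the replicate block and 0.395 with the pool as a random block).

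Most neuronal markers were also lower at P8. Of 18 listed for spiral ganglion neurons, 12 were lower at an adjusted p under 0.05 (9.19% of all genes), 8 of them at least 2-fold (1.14%). With the pool as a random block 5 were lower (2.29% of all genes). The median difference was -0.83, with 16 markers below 0 and 2 above, Ntrk2 (0.33 ± 0.14) and Ntrk3 (0.01 ± 0.10). The mean signal of the 18 was 8.33 to 8.74 on the P0 arrays and 7.09 to 7.83 on the P8 arrays. Dcx, a microtubule protein of young neurons, fell by 2.44 ± 0.13 on the log2 scale as a lower bound (adjusted p = 1.21e-05), and Stmn2, a microtubule regulator of growth cones, by 2.25 ± 0.26 (adjusted p = 0.000556). The spiral ganglion is not named among the parts of the cochlea that were kept. How much of it the pools of each age held is therefore not known. The part of the neurons in the change of the neuronal kinesins was not tested.

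Kif13b went the other way. This motor carries membrane proteins and binds the scaffold Dlg1. Its P0 signals were 8.56, 8.70 and 8.55 in the first set and 8.42, 8.30 and 8.18 in the second, and its P8 signals 10.04, 10.20 and 10.03 in the first set and 9.41, 9.28 and 9.15 in the second. All P8 arrays were above all P0 arrays, and the first set was higher than the second at both ages, by more at P8. It rose 2.35-fold over the 3 regions (1.23 ± 0.22, adjusted p = 0.00497), by 1.49 in the first set and 0.98 in the second, and the differences in base, middle and apex were 1.24, 1.24 and 1.22. Within a region the adjusted p was 0.126 to 0.144, and 0.000887 to 0.000952 under the replicate block. Its relative Kif13a differed by -0.04 ± 0.12 (adjusted p = 0.843). Myelin and Schwann cell markers, 9 tested of 12, had a median of 0.35 with 4 higher and 1 lower at an adjusted p under 0.05 (9.52% and 9.19% of all genes). Other lists rose by more. The 8 stria vascularis markers had a median of 1.13 with 6 higher, the 6 tested bone markers 1.92 with all 6 higher, and none was lower in either list. The part of any cell type in the rise of Kif13b was not tested.

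Kif21a, the closest relative of Kif21b, had the largest apex-base difference of the 37 kinesins at P8. Its P0 signals in base, middle and apex were 8.09, 8.53 and 8.51 in the first set and 8.21, 8.27 and 8.35 in the second, and its P8 signals 8.16, 8.67 and 8.88 in the first set and 8.01, 8.50 and 8.84 in the second. At P8 the middle was above the base and the apex above the middle in both sets, and base and apex did not overlap. The apex-base difference was 0.77 ± 0.15 at P8, a fold of 1.71, and 0.29 ± 0.15 at P0. At P8 the adjusted p was 0.138, 0.0085 under the replicate block and 0.00218 with the pool as a random block. Under the replicate block it was the only kinesin to pass at P8, where 1.58% of all genes did, and none did at P0, where 0.675% did. The change from P0 to P8 was 0.49 ± 0.21 (adjusted p = 1, and 0.61 with the replicate block), and over the 3 regions the ages differed by 0.19 ± 0.08 (adjusted p = 0.168).

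The remaining transport kinesins, Kif1b, Kif1c, Kif13a, Kif16b and Kif5b, differed between the ages by -0.14 to 0.14 with adjusted p from 0.366 to 0.887. Kif1b and Kif1c are relatives of Kif1a, and Kif16b moves early endosomes.

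**Figure D5:**
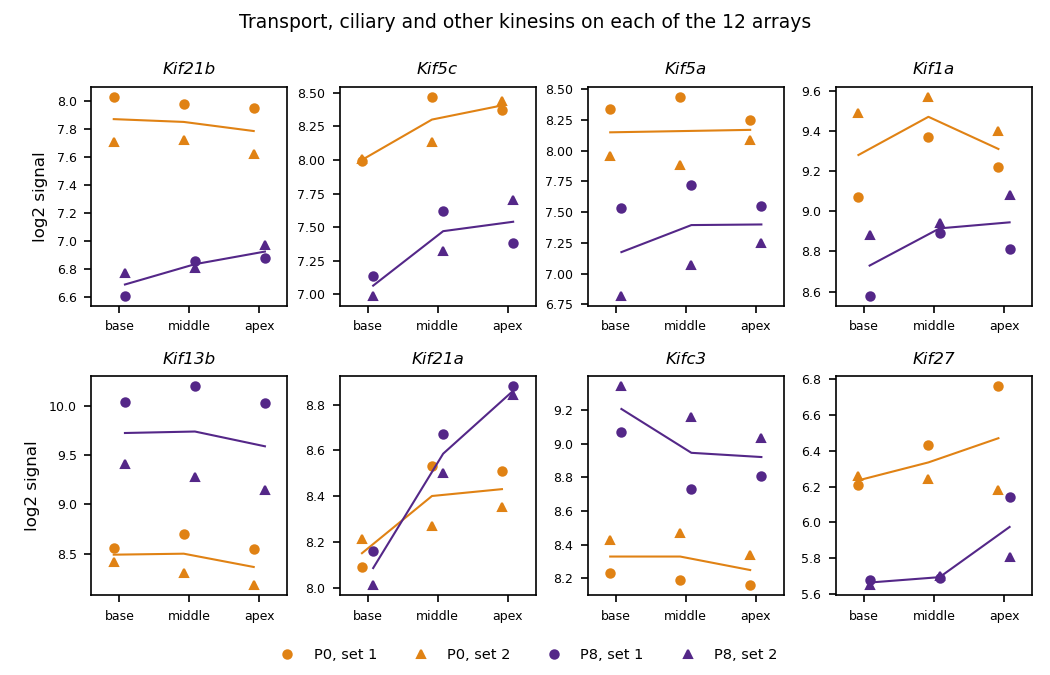
Log2 signal of Kif21b, Kif5c, Kif5a, Kif1a, Kif13b, Kif21a, Kifc3 and Kif27 on each array by region, with P0 in orange, P8 in purple, circles for the first and triangles for the second dissection set, and lines through the mean of the 2 sets; each panel has its own vertical scale. Kif21b, Kif5c, Kif5a and Kif27 lie lower on all P8 arrays, Kif13b and Kifc3 higher, and Kif21a at P8 goes from 8.01 and 8.16 in the base to 8.84 and 8.88 in the apex.

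Kinesin-1 works with light chains and adaptors. Of 19 such genes 16 were tested and none changed 2-fold. At an adjusted p under 0.05 alone, 2 were lower and 1 was higher, shares of 12.5% and 6.25% that lie near the 9.19% and 9.52% of all genes. Those lower were the huntingtin-associated adaptor Hap1 (-0.61 ± 0.07, adjusted p = 0.000658) and the scaffold Mapk8ip2 (-0.47 ± 0.14, adjusted p = 0.0485), and the gene that was higher the mitochondrial adaptor Trak2 (0.71 ± 0.13, adjusted p = 0.00552). Of 19 tested subunits and regulators of cytoplasmic dynein, the motor that runs the opposite way, the intermediate chain Dync1i1 (0.93 ± 0.13, adjusted p = 0.0016) and the light chain Dynlt3 (0.89 ± 0.10, adjusted p = 0.000454) were higher, 10.5% of the list and near the background, and none was lower. Under the replicate block 3 dynein genes were higher and 4 lower, and 2 adaptors higher and 3 lower, against 19.5% higher and 21.8% lower over all genes. These 5 genes are named because their counts are small, after their values were seen.

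Of the 9 ciliary kinesins, 0 passed in limma with a fold of 2 between the ages, and 1, Kif27, was lower at P8 at an adjusted p under 0.05, 11.1% against 9.19% of all genes. At an unadjusted p under 0.05 there were 2, Kif27 and Kif24, against 31.2% of all genes in either direction, and at an adjusted p under the replicate block 3, Kif27, Kif24 and Kif3a, against 21.8% lower over all genes. With the pool as a random block 0 of the 9 were lower, against 2.29% of all genes. Their median difference was -0.11, between -0.57 for Kif27 and 0.18 for Kif3b. Kif27, related to the hedgehog regulator Kif7, gave 6.21 to 6.76 at P0 in the first set and 6.18 to 6.26 in the second, and at P8 5.68 to 6.14 and 5.65 to 5.81. Its P8 means were under 6 in each region, so the fall of 0.57 ± 0.12 is a lower bound (adjusted p = 0.00921, and 0.217 with the pool as a random block). Kif27 was tested only through its P0 groups, where it was higher, so its call lends no support to a fall of ciliary kinesins.

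The kinesin-2 pair that drives intraflagellar transport had differences of opposite sign, neither of which passed. Kif3a differed by -0.47 ± 0.23 (adjusted p = 0.216, 0.000989 under the replicate block and 0.408 with the pool as a random block). Its partner Kif3b differed by 0.18 ± 0.16 (adjusted p = 0.489). Kif24, which restrains the growth of cilia, differed by -0.41 ± 0.13 (adjusted p = 0.0547, 0.00107 under the replicate block and 0.279 with the pool as a random block). Kif17, the other kinesin-2 of cilia, differed by -0.10 ± 0.09, Kif19a, which limits the length of cilia, by -0.19 ± 0.18, Kif7 by -0.11 ± 0.18 and Kif9 by -0.11 ± 0.11, with adjusted p of 0.511 to 0.722.

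Kif6 had 2 entries that disagreed. The brighter, used here, averaged 6.87 at P0 and 6.86 at P8, while the other averaged 6.98 and 6.51, its 6 P8 arrays (6.37 to 6.62) all being under its 6 P0 arrays (6.68 to 7.12). For Kif1c, Kif7 and Kif26b the second entry gave an age difference of 0.10, -0.17 and 0.06, against 0.14, -0.11 and -0.08 for the first.

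Along the axis the ciliary kinesins had median apex-base differences of 0.09 at P0 over 9 genes and 0.11 at P8 over 8, Kif27 being under 6 at both ends at P8. The apex was higher in both sets for 1 of 9 at P0 and for 5 of 8 at P8, against 32.3% and 31.7% of all genes. The largest at P8 was 0.25 ± 0.20 for Kif9 (adjusted p = 1).

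Of 25 tested genes of intraflagellar transport and the BBSome, none changed 2-fold and 2 (8%, near the 9.19% of all genes) were lower at an adjusted p under 0.05, Ift81 (-0.37 ± 0.10, adjusted p = 0.034) and Ift140 (-0.33 ± 0.08, adjusted p = 0.0245), subunits of the anterograde and the retrograde particle. Ift80 had the largest positive difference (0.36 ± 0.31, adjusted p = 0.486), and the median was -0.14. Under the replicate block 10 of the 25 were lower (40%) and 2 higher (8%), against 21.8% and 19.5% of all genes, and with the pool as a random block 0 were lower and 0 higher. Motile cilia markers, 7 of 11 tested, averaged 6.50 to 6.64 on all arrays.

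Among the other kinesins, Kifc3, a minus-end motor that acts at cell junctions, was higher at P8. It gave 8.23, 8.19 and 8.16 in the first set and 8.43, 8.47 and 8.34 in the second at P0 in base, middle and apex and 9.07, 8.73 and 8.81 in the first set and 9.34, 9.16 and 9.03 in the second at P8. Every P8 array was above every P0 array, and the base was the highest region at P8 in both sets. The rise was 1.64-fold (0.72 ± 0.11, adjusted p = 0.00261), and 1.83-fold in the base (adjusted p = 0.0457). The basal call was lost in 10 of the 12 fits that leave out 1 array, the exceptions being the P8 middle arrays, and with a trend in the prior variance, and it held under the replicate block (adjusted p = 0.000449). Its apex-base difference at P8 was -0.29 ± 0.19 (adjusted p = 1).

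The depolymerase Kif2a, the atypical kinesins Kif26a and Kif26b, Kif12 and Kifc2 differed between the ages by -0.12 to 0.07 with adjusted p from 0.606 to 0.914. Kif26b had an apex-base difference of -0.16 ± 0.31 at P0 and 0.40 ± 0.31 at P8, with a change of 0.56 ± 0.44 (adjusted p = 1). Kif2a is the sister of the mitotic Kif2c, and its difference of -0.12 ± 0.16 (adjusted p = 0.662) stood against -1.01 for Kif2c, although that contrast between genes was not tested. The list of mitotic kinesins leaves Kif2a out, so statements on all mitotic kinesins do not cover it.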

How the data were processed

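Total RNA from pooled cochlear tissue was hybridized to Affymetrix GeneChip Mouse Gene 1.0 ST arrays, and the authors estimated expression by robust multiarray averaging (RMA, version not given in the sources used here). The deposited values are log2 RMA signals; whether both dissection sets went through the same run is not given in the sources used here. Genes with 1 symbol and a group mean above 6, the level in the study's methods, were tested (16306 of 19938). Contrasts were fitted with limma 3.58.1 in R 4.3.3 (lmFit and eBayes, 6 group means, all 12 arrays, 6 residual and 2.78 prior degrees of freedom), and p-values were adjusted by Benjamini-Hochberg over all tested genes. A call needed an adjusted p under 0.05 and a fold of 2 between ages or 1.5 within a region or along the axis. Where the lower side had a mean under 6 a difference is a lower bound, and where both sides did none was read.

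Regions of an age within a set shared a pool per the study's methods, and arrays of a set deviated together (r from 0.544 to 0.916 over the 15 group pairs). The set was therefore fitted as a replicate block too, beside the fit without it. Between the ages that block still counts the 3 regions of a pool as replicates, which the pool as a random block does not. The median SD between the 2 arrays of a group was 0.175. On simulated data for P8 against P0 over 16306 genes, the fit recovered 82 of 100 genes changed by a log2 difference of 1 and 97 of 100 changed by 2. The simulated arrays were drawn independently, without the deviation that arrays of a set share, so these rates do not show recovery under that sharing. Values on every array are given for kinesins that passed in any comparison or, with the replicate block, along the axis, at most 10 per role list. Members, lists and tests were chosen with earlier results of these data known. Motif searches used Python 3.11.15 with pandas 2.3.3 and numpy 2.4.6, and plots were drawn in matplotlib 3.10.9. Alternatives were the block, the pool as a random block, a trend in the prior variance, no filter, quantile normalization, median centring, the mean of all entries of a gene, the methods' t-test, leaving out each array, and no fold threshold.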

Additional observations from a re-analysis of the deposited data

How the results depend on the processing

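The count of kinesins lower at P8 over the 3 regions was 5, with 3 after median centring and 15 with no fold threshold, where the count of higher ones went from 1 to 2. Under the replicate block, the lower kinesins went from 6 to 12 in the base and from 8 to 13 in the middle, the higher ones went to 2 in base, middle and apex, the mitotic ones lower in the base at an adjusted p alone went from 4 to 10, and 1 kinesin, Kif21a, was higher in the apex at P8. At an adjusted p alone over the 3 regions it moved lower ciliary kinesins from 1 to 3, lower genes of intraflagellar transport from 2 to 10 and higher ones from 0 to 2, lower dynein genes from 0 to 4 and higher adaptors from 1 to 2, and with the fold mitotic kinesins lower in the base from 4 to 9. Under the replicate block no other count of calls given above for kinesins or their mitotic partners moved by over 1.5 times. With the pool as a random block, 2 kinesins were higher basally, 1 in the middle and 1 apically, 1 was higher in the apex than the base at P8, and 2 axonal and cargo kinesins in place of 4 were lower at P8 at an adjusted p alone. In that fit 0 ciliary kinesins in place of 1 were lower at P8 at an adjusted p alone. A trend in the prior variance left 0 higher in the base, and quantile normalization gave 1 higher in the apex. The methods' t-test left 0 lower and 0 higher in the base, 0 lower in the middle and 0 lower in the apex after Benjamini-Hochberg adjustment, while without adjustment it gave 1 higher in the apex, 1 higher in the apex than the base at P8 and 7 mitotic kinesins lower in the base. Leaving out each array in turn gave 3 to 6 lower kinesins over the 3 regions, 0 to 7 lower and 0 to 1 higher in the base, 0 to 8 lower in the middle and 4 to 11 lower in the apex, and at an adjusted p alone 9 to 10 mitotic kinesins lower over the 3 regions, 4 to 9 in the apex and 0 to 5 in the base. No direction reversed among the genes followed by name. The causes were not tested, other than that a left-out array leaves its group with 1, which is assumed to vary like the other groups. Background signal limits Kif4, Kif27, Kif14 and Kif2b, whose P8 means were under 6 in every region. It also limits Kif18a in the P8 apex (5.87) and Kif20b in the P8 middle (5.96).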
